A study of Mus musculus with 23 samples.

Results

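The 10 genes described here, Glul, Cyp2e1, Axin2, Lgr5, Slc1a2, Rhbg, Oat, Gulo, Lect2 and Tbx3, are markers of pericentral hepatocytes, the liver cells nearest the central vein, or genes that depend on Wnt signalling in those cells. Every probe set that the platform annotation pairs with 1 of these genes alone was taken, which gave 21 of 45037 probe sets and all 10 genes among 18193 measured genes. Each gene is represented by its probe set with the highest mean over the 23 arrays, and 11 further probe sets of 5 genes are reported beside it. Expression was measured on Affymetrix Mouse Genome 430 2.0 arrays in livers of male hemizygous FVB/N-SULT1A1/2 mice, a line with human sulfotransferase genes. What drives the transgenes is not given in the sources used here, and every animal, vehicle controls included, carried them. The treated animals were given 1-MIM-OH (1-methoxy-3-indolylmethyl alcohol), which arises from a glucosinolate, orally, 26 mg/kg per dose on 3 occasions a week, and controls were given the vehicle glyceryl trioctanoate. One set of mice was killed 24 h after dose 10, at 21 d, and comprised 6 vehicle and 5 treated animals on the arrays. The other set was killed 24 h after dose 40, at 90 d, with 6 animals in each arm. The submitters left out 1 treated array of the 21 d group. The labels give an age of 5 weeks for every animal of both durations, so this cannot be the age at death in the 90 d groups. Each array is 1 animal.

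The liver lobule is divided into zones along the path of the blood, from the portal field to the central vein. Wnt ligands and R-spondins from endothelial cells of the central vein stabilise beta-catenin in nearby hepatocytes, which with TCF/LEF factors switches on pericentral genes. These cells take up ammonia that escaped the periportal urea cycle and fix it in glutamine, and they carry much of the liver's cytochrome P450 metabolism. In an array of whole liver, fewer cells of a type and less RNA per cell cannot be told apart, and position within the lobule is not measured.

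The stretches below show where the letters of the TCF/LEF core, CTTTGA, which reads as TCAAAG on the other strand, stand in the members' promoter windows. RefSeq windows of the GRCm38.p6 assembly, from 250 bases before to 50 bases after the start, were at hand for 6 members, Glul, Cyp2e1, Axin2, Slc1a2, Oat and Lect2. The core was found 4 times, in the windows of Cyp2e1, Slc1a2 and Lect2. Among all 32851 windows of this length in the table, 5257 (16%) held it on either strand. Each stretch is on the gene's strand, with the core in capitals and 30 bases on each side.
Cyp2e1, chr7:140763654-140763719, plus strand, core from base -135: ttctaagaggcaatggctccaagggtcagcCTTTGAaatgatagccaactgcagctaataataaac
Slc1a2, chr2:102706202-102706267, plus strand, core from base -206: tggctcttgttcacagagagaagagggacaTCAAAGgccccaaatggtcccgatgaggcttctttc
Slc1a2, chr2:102706331-102706396, plus strand, core from base -77: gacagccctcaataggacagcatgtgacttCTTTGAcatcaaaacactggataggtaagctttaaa
Lect2, chr13:56548534-56548599, minus strand, core from base -31: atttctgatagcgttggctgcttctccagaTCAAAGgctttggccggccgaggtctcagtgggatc
A match of this short core is a description of the letters and not a binding site.

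The medians of the arrays were near equal, from 5.53 to 5.61 (log2), and r between arrays of the same group ran from 0.984 to 0.997. The mean of the 8 hepatocyte markers, such as albumin, was between 14.34 and 14.57 on every array, near the top of the scale. The Gapdh control probe sets measure both ends of 1 transcript, and a larger 3′ minus 5′ difference goes with shorter RNA or labelled product. This difference was between 0.14 and 1.45 in treated and between 0.09 and 0.49 in vehicle livers at 21 d (means 1.00 ± 0.51, SD, n = 5, and 0.33 ± 0.13, SD, n = 6; 2-sided exact permutation p = 0.026; without treated replicate 1, 3, 4 or 5 the difference did not pass). At 90 d the means were 0.53 ± 0.40 (SD, n = 6) and 0.50 ± 0.15 (SD, n = 6), with exact permutation p = 0.909. Among treated 21 d livers, replicates 1, 3, 4 and 5 had values above 0.9 and replicate 2 had 0.14. The fifth array above 0.9 was that of treated 90 d replicate 6. Any fit without these 5 arrays leaves replicate 2 alone in the treated 21 d group. The 3′ minus 5′ difference of the beta-actin control had means of 2.34 in treated and 1.76 in vehicle livers at 21 d (exact permutation p = 0.0303). At 90 d its means were 1.895 and 1.942 (exact permutation p = 0.838).

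Gulo, the vitamin C synthesis enzyme, was the member that rose at 21 d, a call that ended in both fits that take the Gapdh difference into account (0.28 in each, limma adjusted p = 0.265 and 0.42). Of the 10 markers 1 was called higher at 21 d, where 0.577% of all genes were called higher and 1.17% were called in either direction, and none was called lower. No further marker had an unadjusted p under 0.05 at 21 d, against 16.6% of all genes. At 90 d 0 of 10 were called in limma, against 0.748% of all genes, and 3 members (Gulo, Rhbg and Oat) had an unadjusted p under 0.05, as did 12.1% of all genes. The median log2 fold change of the 10 markers was 0.11 at 21 d, with 7 values above 0, and 0.09 at 90 d, with 8 above 0. Over all genes the medians were -0.02 and 0.02. The classical markers Glul, Cyp2e1 and Axin2 had values between -0.03 and 0.12 at both times in their representing probe sets. In both fits that take the Gapdh difference into account the 21 d values of Glul, Axin2 and Oat changed sign, and in the fit without the 5 arrays above 0.9 those of Lgr5 and Slc1a2 did too, none of them called.

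**Figure D1:**
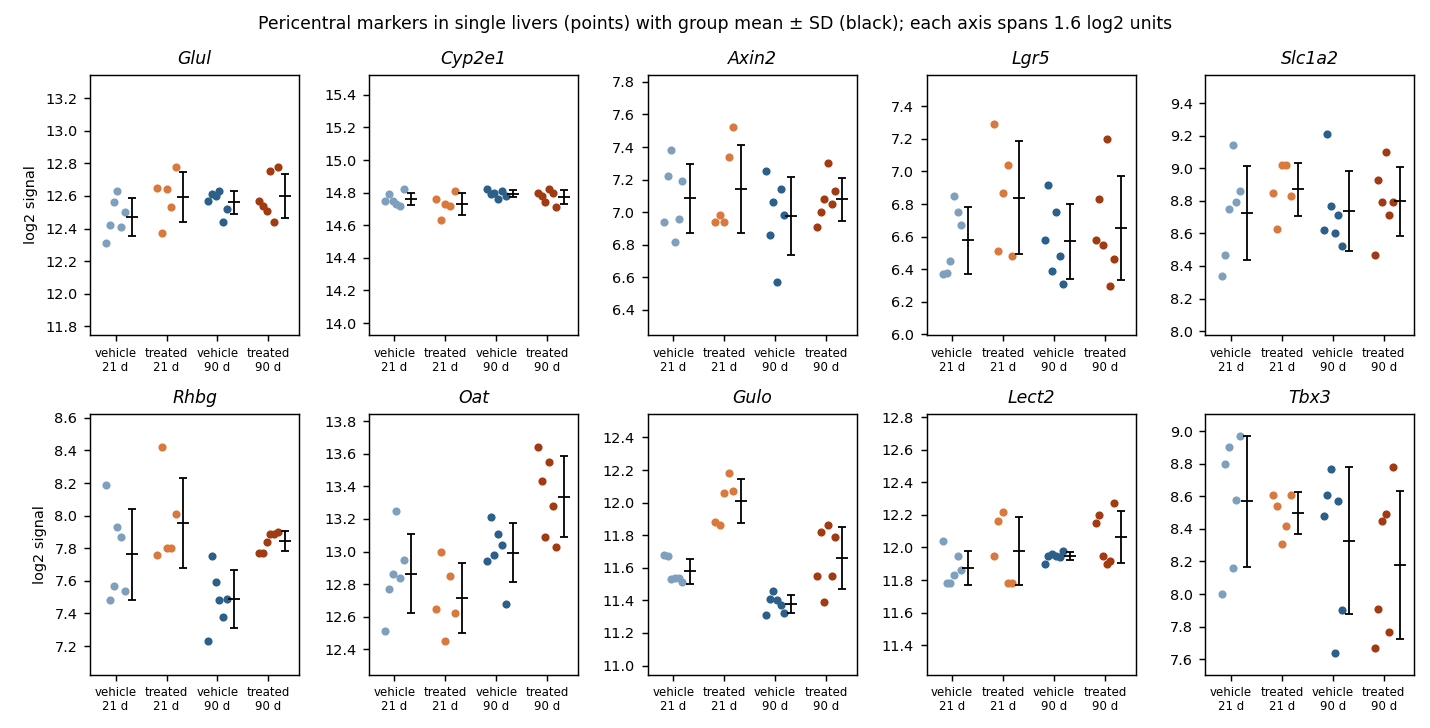
Log2 signal (y) of the 10 pericentral markers in the single livers of the 4 groups (x), with group mean ± SD in black. The 5 treated livers at 21 d sit above all 6 vehicle livers for Gulo, and the 6 treated livers at 90 d sit above all vehicle livers for Rhbg.

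**Figure D2:**
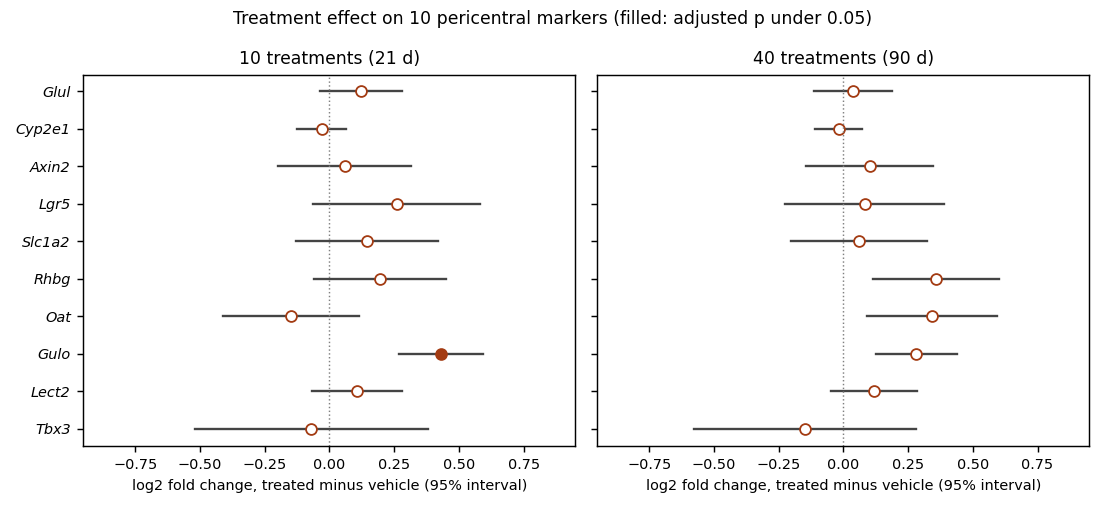
Log2 fold change of treated minus vehicle livers (x) with its 95% interval for each marker (y) at 21 d and at 90 d. The interval of Gulo at 21 d, 0.27 to 0.59, belongs to the only filled point, the one call at an adjusted p under 0.05.

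The first role considered was feedback and self-renewal in the Wnt pathway. Axin2 is part of the beta-catenin destruction complex and is itself a Wnt target. Its log2 signals were 6.94, 7.22, 7.38, 6.82, 6.96 and 7.19 in vehicle and 6.94, 6.98, 6.94, 7.34 and 7.52 in treated livers at 21 d. At 90 d, vehicle livers had 7.25, 6.86, 7.06, 6.57, 7.14 and 6.98, and treated livers had 6.91, 7.0, 7.08, 7.30, 7.05 and 7.13. The groups overlapped at both times, and the highest 21 d value came from treated replicate 5. The log2 fold changes were 0.06 ± 0.12 (SE, limma adjusted p = 0.881) at 21 d and 0.10 ± 0.12 (SE, adjusted p = 0.823) at 90 d. The 95% intervals ran from -0.20 to 0.32 and from -0.14 to 0.35. Its second probe set was dim, with a mean of 3.87, and had log2 fold changes of -0.13 and -0.10.

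Lgr5 encodes a receptor of R-spondins that marks hepatocytes at the central vein. Its log2 signals were 6.37, 6.38, 6.45, 6.85, 6.75 and 6.67 in vehicle and 7.29, 6.51, 6.87, 7.04 and 6.48 in treated livers at 21 d. Treated replicates 1, 3 and 4 lay above every vehicle liver, while replicates 2 and 5 lay among them. The log2 fold change was 0.26 ± 0.16 (SE, limma adjusted p = 0.45), with an interval from -0.06 to 0.58. At 90 d the signals were between 6.31 and 6.92 in vehicle and between 6.30 and 7.20 in treated livers, with an effect of 0.08 ± 0.15 (SE, adjusted p = 0.897). The second probe set of Lgr5 was dim, with a mean of 4.83, and its values were -0.13 at 21 d and -0.08 at 90 d.

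Tbx3, a T-box transcription factor downstream of beta-catenin in liver, had the largest SD of the 10 markers in 3 of the 4 groups. Its signals were between 8.0 and 8.97 in vehicle and between 8.31 and 8.61 in treated livers at 21 d, and between 7.64 and 8.77 and between 7.67 and 8.78 at 90 d. The SD within groups was 0.40, 0.13, 0.45 and 0.45 in the same order. Treated minus vehicle was -0.07 ± 0.22 (SE, limma adjusted p = 0.924) and -0.15 ± 0.21 (SE, adjusted p = 0.856). The representing probe set is of a kind that can bind several transcripts, and a second one of similar brightness had -0.29 ± 0.19 and -0.32 ± 0.18 (SE), neither called. The other 3 Tbx3 probe sets had means between 3.74 and 4.90 and gave no call.

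The second role was the handling of ammonia, glutamate and glutamine. Glul encodes glutamine synthetase, which in liver is made only in a narrow rim of hepatocytes around the central vein. Its log2 signals were 12.31, 12.42, 12.56, 12.63, 12.41 and 12.50 in vehicle and 12.65, 12.37, 12.64, 12.53 and 12.78 in treated livers at 21 d. At 90 d they were 12.57, 12.61, 12.60, 12.63, 12.44 and 12.52 in vehicle and 12.57, 12.54, 12.51, 12.75, 12.44 and 12.78 in treated livers. All 4 groups overlapped. Treated minus vehicle was 0.12 ± 0.08 (SE, limma adjusted p = 0.472) and 0.04 ± 0.07 (SE, adjusted p = 0.908), with 95% intervals from -0.04 to 0.28 and from -0.11 to 0.19. The second Glul probe set, with a mean of 10.77, gave -0.002 ± 0.09 (SE) at 21 d. At 90 d it gave 0.19 ± 0.08 (SE, 95% interval 0.02 to 0.36, limma unadjusted p = 0.0273, adjusted p = 0.404).

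Slc1a2, a high-affinity glutamate transporter of pericentral hepatocytes, had signals between 8.34 and 9.14 in vehicle and between 8.63 and 9.02 in treated livers at 21 d. The 90 d signals were between 8.52 and 9.21 in vehicle and between 8.47 and 9.10 in treated livers. The treated livers thus lay almost wholly inside the vehicle range at both times. The log2 fold changes were 0.15 ± 0.13 (SE, limma adjusted p = 0.663) and 0.06 ± 0.13 (SE, adjusted p = 0.913). A second probe set with a mean of 8.32 had -0.11 and -0.06, and 3 others with means between 5.27 and 5.95 gave no call. One further probe set is shared with another gene and was left out.

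Rhbg, an ammonium transporter of the Rhesus family, had signals of 8.19, 7.48, 7.57, 7.93, 7.87 and 7.54 in vehicle and 7.76, 8.42, 7.80, 7.80 and 8.01 in treated livers at 21 d. The groups overlapped, and treated minus vehicle was 0.19 ± 0.12 (SE, limma adjusted p = 0.477). That value was 0.37 with the Gapdh covariate (adjusted p = 0.441) and 0.08 without treated 21 d replicate 2. Without the 5 arrays above 0.9, which left that replicate alone in its group, it was 0.66. At 90 d the signals were 7.23, 7.75, 7.59, 7.48, 7.38 and 7.49 in vehicle and 7.77, 7.77, 7.84, 7.89, 7.89 and 7.90 in treated livers. Every treated liver lay above every vehicle liver at 90 d, but the highest vehicle and the lowest treated value were only 0.02 apart. Groups that do not overlap with treated higher were seen for 0.967% of all genes at this time, and for 1 of the 10 markers. The log2 fold change was 0.36 ± 0.12 (SE, 95% interval 0.11 to 0.60), a ratio of 1.28, and it did not pass (unadjusted p = 0.00571, limma adjusted p = 0.228). With 1 array left out at a time the value was between 0.31 and 0.41 and the adjusted p between 0.111 and 0.443.

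Oat encodes ornithine aminotransferase, which turns ornithine into a precursor of glutamate. Its signals were 12.51, 12.77, 12.86, 13.25, 12.84 and 12.95 in vehicle and 12.65, 13.0, 12.45, 12.85 and 12.62 in treated livers at 21 d. The 90 d livers had 12.94, 13.21, 12.98, 13.11, 13.04 and 12.68 in vehicle and 13.64, 13.43, 13.09, 13.55, 13.28 and 13.03 in treated livers. At 90 d 4 of 6 treated livers were above every vehicle liver, and replicates 3 and 6 were within the vehicle range. The treatment effects were -0.15 ± 0.13 (SE, limma adjusted p = 0.631) at 21 d and 0.34 ± 0.12 (SE, unadjusted p = 0.00952, adjusted p = 0.28) at 90 d. The difference of these effects was 0.49 ± 0.18 (SE, 95% interval 0.13 to 0.86, unadjusted p = 0.0102, limma adjusted p = 0.492) and did not pass.

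The third role was metabolism of foreign compounds and vitamin C. Cyp2e1, a cytochrome P450 that oxidises ethanol and other small molecules, was between 14.72 and 14.82 in vehicle and between 14.63 and 14.81 in treated livers at 21 d. At 90 d it was between 14.76 and 14.82 in vehicle and between 14.71 and 14.82 in treated livers. The log2 fold changes were -0.03 ± 0.05 (SE, limma adjusted p = 0.819) and -0.02 ± 0.04 (SE, adjusted p = 0.924), with intervals from -0.12 to 0.06 and from -0.11 to 0.07. These signals lie close to the highest value on any array, 15.41, and whether the probes still follow the amount of transcript there was not tested.

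Gulo encodes L-gulonolactone oxidase, which makes the last step of vitamin C synthesis in mice. Its log2 signals were 11.68, 11.67, 11.53, 11.54, 11.54 and 11.51 in vehicle and 11.88, 11.86, 12.06, 12.18 and 12.07 in treated livers at 21 d. All 5 treated livers lay above all 6 vehicle livers, as was so for 1.53% of all genes (2.81% in either direction), and for no other marker. The mean rose from 11.58 ± 0.08 (SD, n = 6) to 12.01 ± 0.14 (SD, n = 5), which is 0.43 ± 0.08 in log2 units (SE, limma adjusted p = 0.0136), a ratio of 1.35. Beside it stands the Gapdh 3′ minus 5′ difference, above 0.9 on 4 of these 5 treated arrays. With that difference as a covariate the Gulo value was 0.28 (adjusted p = 0.265), and without the 5 arrays above 0.9 it was 0.28 (adjusted p = 0.42), so the call ended in both fits. The second of these leaves treated replicate 2 alone in its group, an array assumed to vary like those of the other groups. That array had a Gapdh difference of 0.14 and a Gulo signal of 11.86, above the highest vehicle value of 11.68. This is 1 liver, and whether RNA quality enters the Gulo value was not tested. The array also differs from its group: without it 2265 probe sets were called at 21 d in place of 431.

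At 90 d Gulo signals were 11.31, 11.41, 11.46, 11.40, 11.37 and 11.32 in vehicle and 11.55, 11.82, 11.39, 11.86, 11.55 and 11.79 in treated livers. Treated replicate 3 lay among the vehicle livers and the other 5 above them. The log2 fold change was 0.28 ± 0.08 (SE, 95% interval 0.13 to 0.44, unadjusted p = 0.00101) and did not pass (limma adjusted p = 0.104). It passed without treated 90 d replicate 3 (0.34, adjusted p = 0.0223) and once the Gapdh difference entered as a covariate (0.27, adjusted p = 0.0372). Without treated 90 d replicate 6, the array with the high Gapdh difference, it was 0.26 (adjusted p = 0.142). The difference between the effects at the 2 times was -0.15 ± 0.11 (SE, adjusted p = 0.657).

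**Figure D3:**
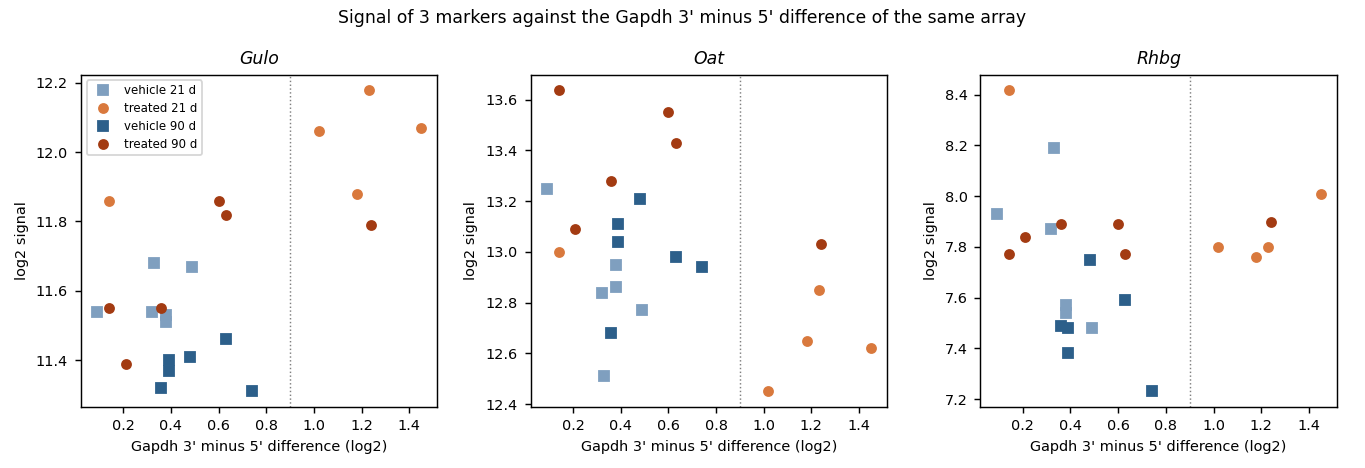
Log2 signal of Gulo, Oat and Rhbg (y) against the Gapdh 3′ minus 5′ difference of the same array (x, log2), with 1 point per liver and a dotted line at 0.9. For Gulo, the treated 21 d array at 0.14, which is 1 liver, has a signal of 11.86, and the vehicle livers of 21 d have 11.51 to 11.68.

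Lect2, a secreted liver protein under beta-catenin control, was between 11.78 and 12.04 in vehicle and between 11.78 and 12.22 in treated livers at 21 d. At 90 d it was between 11.90 and 11.98 in vehicle and between 11.90 and 12.27 in treated livers. Treated replicates 1, 2 and 6 at 90 d were above all vehicle livers, and the other 3 were not. The treatment effects were 0.10 ± 0.08 (SE, limma adjusted p = 0.604) and 0.12 ± 0.08 (SE, adjusted p = 0.661).

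Time was compared within vehicle and within treated livers, where age, duration and number of doses change together. None of the 10 markers was called between the vehicle groups (0.011% of all genes were called), although Gulo and Rhbg had an unadjusted p under 0.05, as did 6.43% of genes. Gulo was lower at 90 d in all vehicle livers (-0.20 ± 0.08 SE, limma adjusted p = 0.763), and such separation with 90 d lower was seen for 0.374% of genes (0.808% in either direction). Rhbg had -0.28 ± 0.12 (SE, adjusted p = 0.783), with overlapping groups. Between the treated groups 0 of 10 markers were called in limma, against 0.0934% of genes (0.0824% higher at 90 d), and 2 had an unadjusted p under 0.05, as did 13.3% of genes. These were Oat, at 0.62 ± 0.13 (SE, adjusted p = 0.0607) with every 90 d liver above every 21 d liver, and Gulo, at -0.35 ± 0.08 (SE, adjusted p = 0.0889). Both passed when either treated 21 d replicate 2 or treated 90 d replicate 6 was left out. Oat also passed without vehicle 21 d replicate 1 or 4 or treated 90 d replicate 3 (adjusted p between 0.00873 and 0.0483 over these 5 fits), and it had 0.48 (adjusted p = 0.467) in the fit that includes the Gapdh difference. Without the 5 arrays above 0.9, which left treated 21 d replicate 2 alone in its group, Oat had 0.40 and Gulo -0.23. For the difference of the treatment effects, 0 of 10 markers and 0% of genes were called in limma, and 1 marker (Oat) had an unadjusted p under 0.05, as did 8.64% of genes.

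Counts for further lists stand against the same shares of all genes, 16.6% at 21 d and 12.1% at 90 d with an unadjusted p under 0.05. Other pericentral genes gave 1 call in the 2 treatment comparisons. Of 22 measured genes of this list, 0 were called at 21 d in limma and 1 was lower at 90 d, where 0.247% of all genes were called lower. An unadjusted p under 0.05 was seen for 4 of the 22 at each time, 3 of them higher and 1 lower, and the medians were -0.07 and -0.05. The called gene was Csad, cysteine sulfinic acid decarboxylase of taurine synthesis. Its 90 d signals were between 11.94 and 12.49 in vehicle and 9.73, 10.96, 11.63, 11.74, 11.17 and 11.01 in treated livers. All treated livers were lower, replicate 1 the most, and the level fell by 1.14 in log2 units (SE 0.24, limma adjusted p = 0.0243). That call ended when treated replicate 2 or vehicle replicate 1, 3 or 4 of 90 d was left out (highest adjusted p 0.0682) and when only the 90 d groups were fitted (adjusted p = 0.0805). At 21 d Csad had -0.39 ± 0.25 (SE, adjusted p = 0.484), and Gstm3, a glutathione transferase, had 0.49 ± 0.22 (SE, adjusted p = 0.269). The mean of Gstm3 at 90 d was 11.47 in vehicle and 12.14 in treated livers, which was not called.

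Genes of the Wnt pathway gave no call at either time. Of 13 measured feedback and target genes, 0 were called in limma at 21 d and at 90 d, with 2 genes at an unadjusted p under 0.05 each time and medians of -0.01 and 0.01. The largest values were those of Myc, a growth-promoting transcription factor (0.47 ± 0.26 SE, adjusted p = 0.391), and Dkk4, a secreted Wnt inhibitor (0.43 ± 0.15 SE, adjusted p = 0.151), at 21 d. At 90 d they were Zbtb16, a zinc finger repressor (1.08 ± 0.42 SE, adjusted p = 0.344), and Sp5, a transcription factor (0.28 ± 0.10 SE, adjusted p = 0.307). Zbtb16 passed only in the fit without the 5 arrays above 0.9 in the Gapdh difference (1.29). Of those arrays only treated 90 d replicate 6 belongs to the 90 d groups. With 1 array left out at a time Zbtb16 had 0.91 to 1.29 and was never called (lowest limma adjusted p = 0.181). Rnf43 and Znrf3, ubiquitin ligases that remove Wnt receptors, had 0.09 ± 0.19 and -0.01 ± 0.14 (SE, adjusted p = 0.883 and 0.982) at 21 d and 0.04 ± 0.18 and -0.03 ± 0.14 (SE, adjusted p = 0.97 and 0.963) at 90 d. Znrf3 was negative in 1 of its 2 probe sets at 90 d.

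Of 22 receptors and intracellular components, 0 were called in limma at either time, with 4 at an unadjusted p under 0.05 at 21 d and 1 at 90 d. The largest values were those of the adaptor Dvl1 (0.38 ± 0.11 SE, adjusted p = 0.0961) and the co-receptor Lrp5 (0.31 ± 0.11 SE, adjusted p = 0.165) at 21 d. Dvl1 passed without treated 21 d replicate 2 (0.45, adjusted p = 0.0283). At 90 d they were the receptors Fzd7 (-0.43 ± 0.15 SE, adjusted p = 0.259; negative in 1 of 2 probe sets) and Fzd8 (-0.32 ± 0.19 SE, adjusted p = 0.599). Ctnnb1, which encodes beta-catenin, had -0.10 ± 0.06 (SE, adjusted p = 0.395) and -0.06 ± 0.05 (SE, adjusted p = 0.763), and its DNA-binding partner Tcf7l2 had 0.22 ± 0.14 (SE, adjusted p = 0.497) and -0.05 ± 0.14 (SE, adjusted p = 0.932).

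Of 12 ligands and genes of ligand secretion, 0 were called in limma at either time, with 2 and 1 at an unadjusted p under 0.05. The R-spondin Rspo3 and the ligands Wnt2 and Wnt9b, which liver endothelial cells make, had -0.06 ± 0.10, -0.08 ± 0.15 and 0.07 ± 0.11 (SE, adjusted p = 0.832, 0.85 and 0.813) at 21 d. At 90 d they had 0.12 ± 0.10, 0.06 ± 0.14 and 0.09 ± 0.10 (SE, adjusted p = 0.739, 0.921 and 0.815). Wnt9b was positive in 1 of its 2 probe sets at each time. The largest values were those of Wls, the Wnt carrier (-0.28 ± 0.11 SE, adjusted p = 0.225), and Rspo4 (-0.18 ± 0.09 SE, adjusted p = 0.374) at 21 d, and of Wnt5a (-0.76 ± 0.25 SE, adjusted p = 0.238) and Rspo1 (0.20 ± 0.17 SE, adjusted p = 0.76) at 90 d. Mean signals over the 23 arrays were 5.73 for Wnt9b, 5.7 for Wls, 5.22 for Rspo4, 5.71 for Wnt5a and 4.63 for Rspo1. These lie near or below the array medians of 5.53 to 5.61. Rspo3 and Wnt2 were brighter, at 6.74 and 7.05. Whether the dimmer signals stand above background was not tested, so the lack of calls does not show unchanged expression of these genes.

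Genes of the opposite zone, the periportal hepatocytes, gave 2 calls at 21 d, both lower in treated livers, where 0.594% of all genes were called lower. Of 20 measured genes 16 had values below 0, 8 had an unadjusted p under 0.05 (7 of them lower; 16.6% over all genes), and the median was -0.13. Uox, the peroxisomal urate oxidase, was between 13.93 and 14.15 in vehicle and between 13.59 and 13.72 in treated livers and fell by 0.34 in log2 units (SE 0.06, limma adjusted p = 0.00949). Hsd17b13, a lipid droplet protein, was between 9.93 and 10.45 in vehicle and between 9.47 and 10.05 in treated livers and fell by 0.51 (SE 0.11, adjusted p = 0.0304). With the Gapdh difference as a covariate both calls ended (Uox -0.24 and Hsd17b13 -0.51, adjusted p = 0.194 and 0.192). Without the 5 arrays above 0.9, with treated 21 d replicate 2 alone in its group, Uox had -0.30 and Hsd17b13 -0.75. The Hsd17b13 call ended as well without treated 21 d replicate 1 or vehicle 21 d replicate 2, 3, 4 or 5 (highest adjusted p 0.0882) and when only the 21 d groups were fitted (adjusted p = 0.083). At 90 d 0 of 20 were called in limma, 7 had an unadjusted p under 0.05 (5 of them lower; 12.1% over all genes), 14 were below 0 and the median was -0.09. Uox then lay between 13.97 and 14.16 in vehicle and between 13.64 and 13.96 in treated livers. It was the 1 gene of the 20 whose groups did not overlap, as was so with treated lower for 0.385% of all genes (1.35% in either direction). Hsd17b13 was between 9.97 and 10.44 in vehicle and between 9.51 and 9.98 in treated livers. The largest 90 d values were those of Hsd17b6, a steroid dehydrogenase (0.89 ± 0.22 SE, adjusted p = 0.0704), and Etnppl, which breaks down phosphoethanolamine (-0.53 ± 0.20 SE, adjusted p = 0.329). Hsd17b6 passed without treated 90 d replicate 3 or 6 or vehicle 90 d replicate 6 (adjusted p between 0.00319 and 0.0437). It also passed on the mean of its probe sets, where the value was smaller at 0.50, with a filter at a mean of 6, and in both fits that take the Gapdh difference into account (adjusted p between 0.0055 and 0.0482). The difference between the pericentral and periportal medians was not tested.

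**Figure D4:**
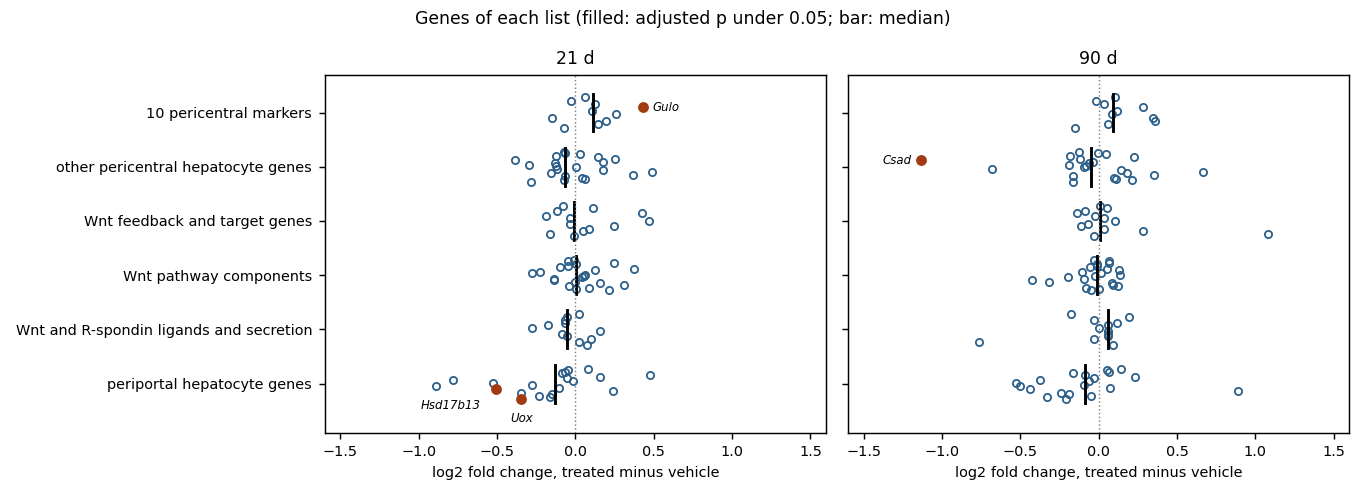
Log2 fold change of treated minus vehicle livers (x) for each gene of the 10 pericentral markers and 5 further lists (y) at 21 d and at 90 d, with a bar at each list's median. Filled points are calls, namely Gulo, Uox and Hsd17b13 at 21 d and Csad at 90 d.

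Markers of other liver cells and of pancreas gave no call in limma in either treatment comparison. An unadjusted p under 0.05 was seen for 1 hepatocyte and 1 endothelial cell marker at 21 d and for 1 hepatocyte and 2 cholangiocyte markers at 90 d. The 8 Kupffer cell markers had a median log2 fold change of -0.46 at 21 d, all 8 below 0, and of 0.36 at 90 d, all 8 above 0. Their mean signal was between 8.07 and 11.18 in treated and between 8.52 and 10.76 in vehicle livers at 21 d, and between 8.38 and 10.17 and between 8.31 and 9.86 at 90 d. The largest values were those of Vsig4 (-0.69 ± 0.41 SE, limma adjusted p = 0.437) and Timd4 (-0.60 ± 0.56 SE, adjusted p = 0.672) at 21 d, and Marco (1.11 ± 0.77 SE, adjusted p = 0.667) and Cd5l (0.45 ± 0.47 SE, adjusted p = 0.803) at 90 d. Vsig4 passed without treated 21 d replicate 2 (-1.21, adjusted p = 0.0284). With the Gapdh covariate Vsig4 and Timd4 turned to 0.31 and 0.56 at 21 d, neither of them called. Without the 5 arrays above 0.9, where treated 21 d replicate 2 alone stands for its group, they had 1.37 and 2.07. The 11 markers of liver endothelial cells had medians of -0.08 and 0.06, and their mean signal was between 7.71 and 8.41 on all arrays. Their largest values were those of Pecam1 (-0.33 ± 0.13 SE, adjusted p = 0.199) and Fcgr2b (-0.20 ± 0.12 SE) at 21 d and Vwf (0.25 ± 0.20 SE) and Thbd (0.18 ± 0.12 SE) at 90 d. The part of these shifts in the members' values was not tested.

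The other marker lists are given by their medians and the 2 largest values at each time. Hepatocyte markers had medians of -0.05 and -0.02, with Tat at -0.29 ± 0.13 (SE) and Fgb at -0.15 ± 0.08 (SE) at 21 d and Tat at -0.35 ± 0.12 (SE) and Hnf4a at -0.03 ± 0.08 (SE) at 90 d. The 6 cholangiocyte markers had medians of -0.13 and 0.15, with Tspan8 at -0.23 ± 0.18 (SE) and Sox9 at -0.16 ± 0.16 (SE), then Krt7 at 0.38 ± 0.11 (SE) and Sox9 at -0.33 ± 0.15 (SE). Tspan8 was negative in 4 of 5 probe sets at 21 d and Sox9 in 2 of 3 at 90 d. Krt7 passed without vehicle 90 d replicate 3 (0.47, limma adjusted p = 0.0253). The 8 stellate cell markers had medians of -0.01 and 0.01, with Lrat at 0.34 ± 0.26 (SE) and Pdgfrb at 0.28 ± 0.15 (SE), then Des at 0.25 ± 0.15 (SE) and Reln at -0.22 ± 0.17 (SE). The 6 pancreas markers had medians of 0.20 and -0.16, with Cpa1 at 0.41 ± 0.42 (SE) and Cela2a at 0.22 ± 0.50 (SE), then Cela2a at -0.45 ± 0.47 (SE) and Cpa1 at -0.34 ± 0.40 (SE).

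The markers were next compared with each other across single livers, after each group's mean was removed. Over the 23 arrays the highest Pearson r between members were 0.66 for Lgr5 and Slc1a2, 0.61 for Axin2 and Tbx3 and 0.51 for Glul and Slc1a2. The lowest were -0.55 for Axin2 and Lect2 and -0.52 for Cyp2e1 with Rhbg and with Lect2. Members of the set thus varied in both directions against each other. These values share arrays and their RNA quality, and r with the Gapdh difference was 0.60 for Glul, 0.59 for Gulo, 0.48 for Axin2, 0.40 for Tbx3 and 0.39 for Cyp2e1, and -0.43 for Oat and -0.41 for Rhbg. Lgr5, Slc1a2 and Lect2 had values between -0.16 and 0.19.

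**Figure D5:**
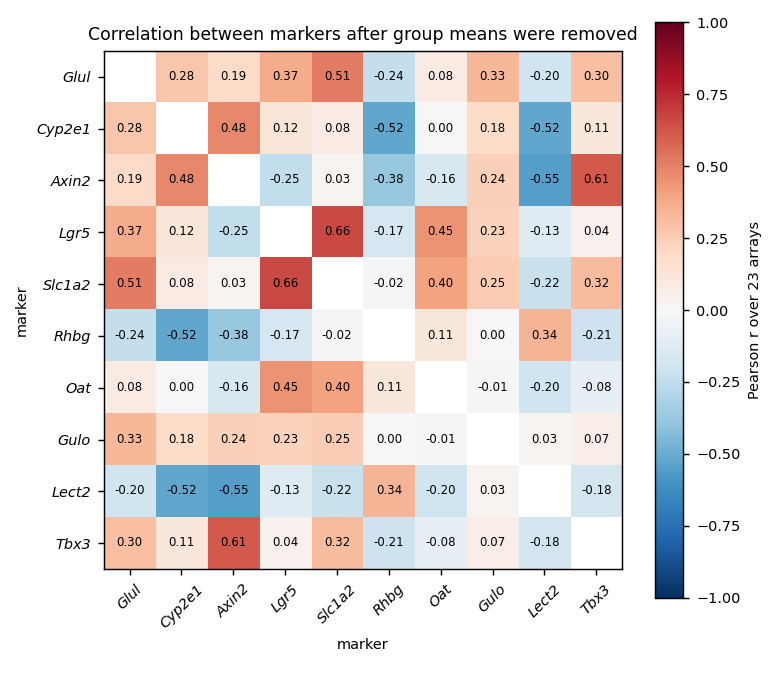
Pearson r between each pair of the 10 markers (both axes) over 23 arrays after group means were removed, on a colour scale from negative to positive. The highest pair is Lgr5 with Slc1a2 at 0.66 and the lowest is Axin2 with Lect2 at -0.55.

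Glul was tested against each of the 9 other members by permutation within groups, and none passed after Benjamini-Hochberg adjustment over the 9 pairs. The highest r was that with Slc1a2, 0.51 (permutation p = 0.0146, adjusted p = 0.131), with a Spearman rho of 0.39 (permutation p = 0.0842, adjusted p = 0.577). Without the 2 livers farthest from the median of Glul r was 0.49 (permutation adjusted p = 0.132). With the Gapdh difference removed it was 0.50 (permutation adjusted p = 0.227). The lowest r was that with Rhbg, -0.24.

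The genes whose pattern over the 23 arrays was most like that of 3 members were then listed, among 10843 genes with a mean of at least 6. For Glul they were Zdhhc5 (r = 0.84), Rhbdd3 (0.82), Hnrnpab (0.82), Atp13a3 (0.79) and Ywhag (0.78). For Axin2 they were Dusp6 (r = 0.80), Ppp1r3b (0.79), Fbxo30 (0.78), Nfat5 (0.78) and Ythdc1 (0.76). For Gulo they were Rbck1 (r = 0.82), Sema4g (0.79), Slc9a8 (0.79), Ttc38 (0.78) and Rnpepl1 (0.78). No other member and no listed Wnt gene was among these 15 genes. The values describe likeness over arrays that share their RNA quality, and no test was made.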

How the data were processed

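Liver RNA of 23 mice was hybridised to 1 array each. Deposited signals run from 2.23 to 15.41 and were taken as log2 values; their range, not a label, gives this base. Per the submitters' processing notes they come from Partek and RMA, with no version or setting given in the sources used here. RMA brings arrays to 1 distribution, which would hide a change shared by all transcripts. No raw scans were used, so signal could not be set against background.

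Control probe sets (64 of 45101) were left out. Of the 45037 tested, 34945 were paired with 1 gene, 932 with several and 9160 with none in the platform annotation used here. Group means were fitted over all 4 groups in limma (3.58.1, R 4.3.3; lmFit, then eBayes; 19 residual degrees of freedom). P-values were adjusted by the Benjamini-Hochberg method over all 45037 probe sets, and a value under 0.05 made a call. Each log2 fold change is a difference of group means with its moderated standard error. The number of arrays limits the precision. The fit was run on simulated data with noise independent between probe sets and arrays, as a check of the code alone. Pearson and Spearman correlations with Glul used 100000 permutations within groups.

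The members, the gene lists, the tests and the rule for named genes were chosen with earlier results of these data known. The rule named all members, the called genes of each list or the 2 with the largest change where none was called, 7 Wnt genes in any case, and the 5 genes most like Glul, Axin2 and Gulo. Alternatives covered the replicate number as a block, the mean of all probe sets, a filter at a mean of 6, fits of the compared groups alone, the Gapdh difference, 2 further scalings, another eBayes setting and leaving out each array. Leaving out arrays from the Gapdh comparison was added after the data were seen. The labels do not say whether animals shared cages, litters or handling days. A further array of 1 treated animal was not analysed here.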

Additional observations from a re-analysis of the deposited data

Results flagged for a closer look

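The 40 sets of values (10 markers in 4 groups) were checked for a liver far from the others of its group. This picked out 1 value, the Slc1a2 signal of vehicle 90 d replicate 2, at 9.21 against 8.52 to 8.77 in the other 5 livers of the group. Its gap to the nearest liver was 0.638 of the group's range. Chance picks out about 1 in 20 groups.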

How the results depend on the processing

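The 23 fits that each left out 1 array kept the Gulo call at 21 d (log2 fold change 0.39 to 0.47, highest limma adjusted p 0.042). The number of markers called at 21 d was 0 with the Gapdh difference as a covariate and 0 without the arrays above 0.9 in it. At 90 d it was 1 with the covariate, and 0 to 1 with 1 array left out. Between the treated groups it was 1 on the mean of all probe sets and 1 with a filter at a mean of 6, Oat in both (adjusted p = 0.0397 and 0.0491), and 0 to 2 with 1 array left out. Of the single gene values, 707 of 755 kept their direction and side of the threshold under other settings (7 lost and 9 gained a call, 32 changed sign), as did 1933 of 1978 with 1 array left out.

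Same-numbered animals of different groups showed no common tendency to vary together (r from -0.36 to 0.35, median -0.16, in 33 pairs). These values cannot tell whether such animals shared a cage, litter or handling day. With the replicate number as a block, 91 probe sets were called at 21 d in place of 431 and 148 at 90 d in place of 226. Gulo had 0.43 at 21 d (adjusted p = 0.0461), and 1 marker was called between the treated groups, Oat (0.66, adjusted p = 0.0337).

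All values below are log2 fold changes unless said otherwise, none of them was called, and the cause of each change of sign was not tested. With the Gapdh covariate at 21 d, Glul had -0.026, Axin2 -0.15, Oat 0.046, Rnf43 -0.22, Ctnnb1 0.0043, Tspan8 0.11, Vsig4 0.31 and Timd4 0.56. The difference of the Rhbg effects was -0.0078. Without the arrays above 0.9, Glul had -0.10, Axin2 -0.105, Lgr5 -0.068, Slc1a2 -0.095, Oat 0.14, Rnf43 -0.57, Ctnnb1 0.055, Tcf7l2 -0.22, Tspan8 0.005, Sox9 0.34, Fgb 0.16, Vsig4 1.37, Timd4 2.07, Pecam1 0.02 and Wls 0.053 at 21 d. Znrf3 had 0.015 at 90 d and the difference of the Rhbg effects was -0.31. That fit left replicate 2 alone in the treated 21 d group. On the mean of all probe sets, Axin2 had -0.033 and Slc1a2 -0.00667 at 21 d, and Slc1a2 had -0.00967 and Znrf3 0.083 at 90 d. Znrf3 had 0.000667 at 21 d with arrays centred on their medians, and Cyp2e1 had 0.011 at 90 d after quantile normalization. With the Gapdh difference removed, r of Glul was -0.14 with Axin2, 0.008 with Rhbg and -0.034 with Gulo, and without the 2 outermost livers -0.06 with Axin2, -0.019 with Oat and 0.066 with Lect2.

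With 1 array left out at 21 d, Axin2 ranged from -0.035 to 0.12, Tbx3 from -0.18 to 0.01, Rnf43 from -0.005 to 0.25, Znrf3 from -0.11 to 0.088, Wnt9b from -0.016 to 0.12, Cpa1 from -0.023 to 0.60 and Cela2a from -0.21 to 0.43. At 90 d, Lgr5 ranged from -0.028 to 0.15, Slc1a2 from -0.000333 to 0.15, Rnf43 from -0.098 to 0.14, Znrf3 from -0.12 to 0.059, Tcf7l2 from -0.13 to 0.033 and Hnf4a from -0.069 to 0.017. Rhbg between the treated groups ranged from -0.16 to 0.000833. The Gapdh 3′ minus 5′ difference between treated and vehicle livers at 90 d ranged from -0.11 to 0.11. At 21 d that difference lost its exact permutation call without treated replicate 1, 3, 4 or 5.

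Counts of called probe sets moved by over 1.5 times in several fits. At 21 d, 431 became 813 with the filter, 207 with only the compared groups and 123 with the covariate. At 90 d, 226 became 149 with only the compared groups, 504 with the covariate and 761 without the arrays above 0.9. With probe sets averaged per gene, 240 genes were called at 21 d and 214 at 90 d, in place of 213 and 136. With 1 array left out, counts were 133 to 2265 at 21 d and 114 to 389 at 90 d.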
